A study of Homo sapiens with 4 samples.

Results

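The adhesion and costimulatory ligands described here are 10 genes whose products let a Hodgkin cell bind and signal to T cells: CD48, CD58, CD80, CD86, ICAM1, ICOSLG, CD70, TNFSF4, SLAMF1 and LGALS1. They were chosen by gene symbol, as all probe sets that the platform annotation assigns to one of these genes alone. This gave 27 probe sets of 10 genes, of 54613 probe sets on the arrays and 19775 genes with a probe set of their own. A probe set is the group of short oligonucleotides that reads 1 stretch of transcript, and its intensity is the brightness after labelled RNA has bound. RNA came from KM-H2, an established Hodgkin lymphoma line that carries a fusion of CIITA, which switches on the HLA class II genes, with the transcript BX648577. The knockdown group held 2 arrays of cells given a lentiviral hairpin aimed at exon 2 of BX648577 as part of that fusion, and the control group held 2 arrays of cells given a non-silencing control. Both groups were the same line and both were transduced, and a single hairpin was used. The labels do not say whether replicates were separate transductions, so p-values measure only the spread between these arrays.

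T cells read a neighbouring cell through paired surface proteins. ICAM1 holds the integrin LFA-1, made of ITGAL and ITGB2, and CD58 holds CD2, which together let the contact form. CD80 and CD86 engage CD28 and CTLA4, ICOSLG engages ICOS, CD70 engages CD27, and TNFSF4 (OX40L) engages TNFRSF4, each adding a second signal beside antigen recognition. CD48 binds CD244, SLAMF1 binds itself on the facing cell, and LGALS1 encodes galectin-1, a sugar-binding protein that dampens T cells. Hodgkin tumour cells lie among many T cells, and loss of CD58 is known as a route of immune escape in lymphoma.

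The reagent is shown because every difference below is a difference between cells with and without it. The arm of the hairpin after its loop, as the labels' insert gives it, reads as follows.
hairpin arm: tatttgatagtgaggtggctgtc

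In knockdown cells the intensities of CD48, ICAM1 and CD70 were higher than in control cells, at 1.52, 1.40 and 1.27 times the control mean. No member was lower past a test. In bulk RNA, more cells with a transcript and more transcript per cell cannot be told apart. Each log2 fold change is the knockdown mean less the control mean of log2(intensity + 16), a scale that compresses the changes of dim probe sets. They were tested in limma over all 12922 genes that passed a filter on dim probe sets, each gene read at its brightest probe set. The filter was a mean of 4.60 on that scale, an intensity of 8.26, which 8 of the 10 genes passed and TNFSF4 and SLAMF1 did not. With 1 prior variance for all genes (the common-prior fit), 0 of the 8 tested members had an adjusted p at or below 0.05, where 0% of all tested genes were called higher. At an unadjusted p below 0.05 that fit held 3 of the 8, all higher, against 14.1% of all genes in either direction. With a prior variance that follows brightness (the intensity-trend fit), 3 of the 8 were called, all higher, against 1.59% of all genes called higher. All 3 had a mean intensity of at least 50, and of all genes that bright the share called higher was 3.28%.

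Of the 8 tested members, 7 had both knockdown arrays above both control arrays, a pattern seen in 22.7% of all tested genes. Among the 6 members with a mean intensity of at least 50 it held for 6, against 31% of all genes that bright. The exception was CD80, whose groups overlapped. The median log2 fold change of the 8 tested members was 0.20, beside -0.01 for all tested genes. Of the 8, 7 lay above 0, as did 47.5% of all tested genes and 53.8% of those with a mean intensity of at least 50. Over all 27 probe sets, the dim ones included, 9 had both knockdown arrays above both control arrays, against 19.1% of all one-gene probe sets, and 1 had them below, against 22.3%. The remaining 17 overlapped. Probe sets of a gene read the same RNA, so they are not independent of each other.

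**Figure D1:**
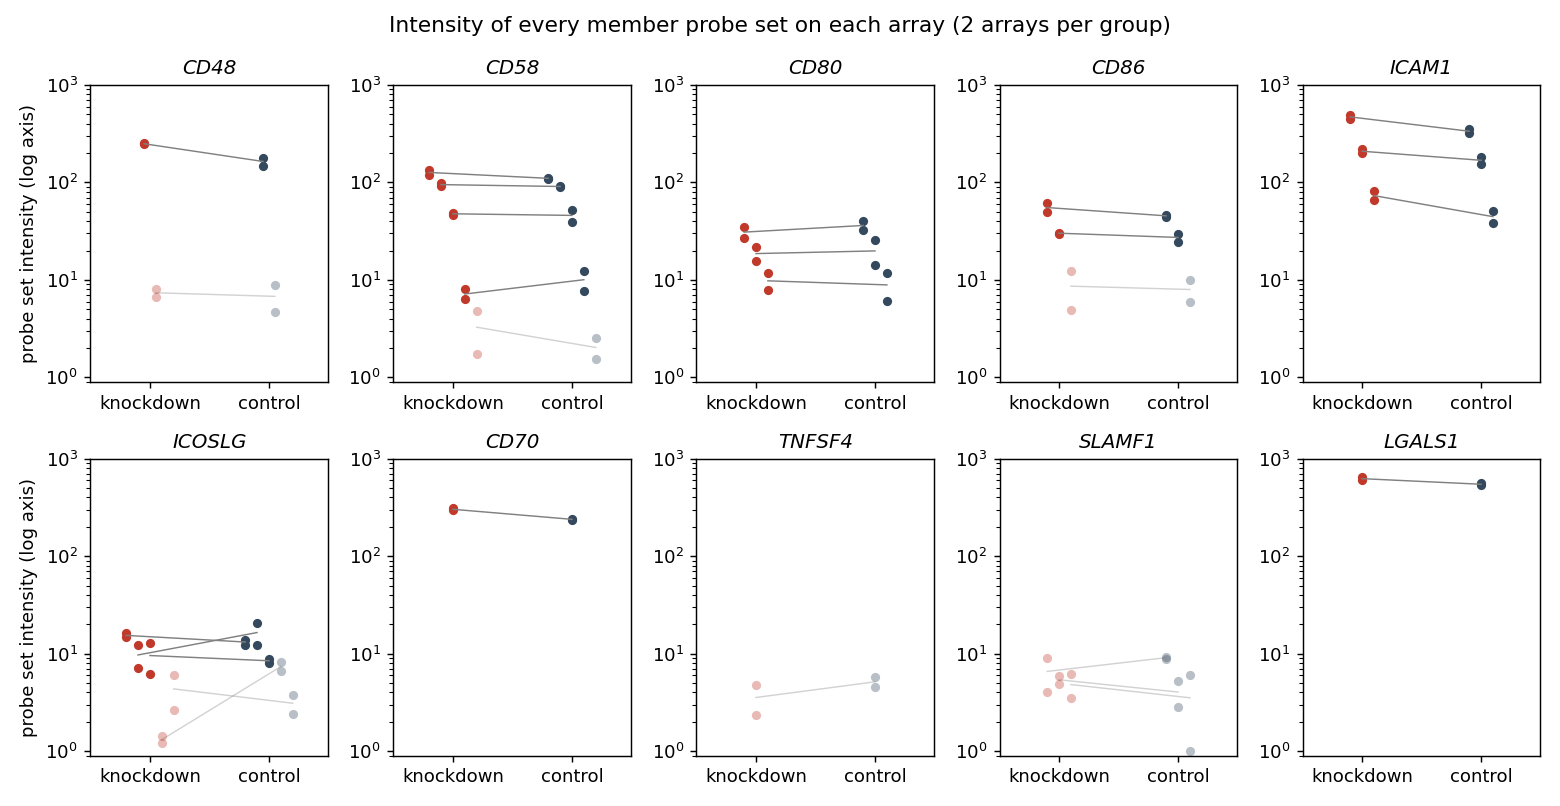
Intensity of each of the 27 probe sets on each array, on a log axis, with knockdown arrays in red on the left and control arrays in dark grey on the right of each panel. Lines join the group means (n = 2 arrays each), and faded points are probe sets below the filter. The points of CD48 at 246 to 252 in knockdown cells and 149 to 179.7 in control cells do not overlap, and the 3 probe sets of ICAM1 all slope the same way.

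ICAM1, the adhesion ligand of LFA-1, was read by 3 probe sets, and in each of them both knockdown arrays lay above both control arrays. The brightest, 202637_s_at, read 490.4 and 450.0 in knockdown cells, against 319.8 and 350.5 in control cells. The gap between the groups was wider than the gap between arrays of a group. The means were 470.2 ± 28.6 in knockdown cells and 335 ± 21.7 in control cells (SD, n = 2 each), a log2 fold change of 0.47. Its standard error was 0.11 by limma's common-prior fit, with an adjusted p of 0.255, and 0.08 in the intensity-trend fit (adjusted p = 0.00332). Only 0.797% of tested genes had a fold change as high or higher.

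The other ICAM1 probe sets leaned the same way by different amounts. Probe set 202638_s_at read 218 and 199.8 in knockdown cells, against 156 and 182 in control cells, a log2 fold change of 0.29. Probe set 215485_s_at read 81.1 and 65.5 in knockdown cells, against 38.1 and 51.0 in control cells, a log2 fold change of 0.56. In the fit over all 22639 one-gene probe sets past the filter, the intensity-trend fit called 202637_s_at (adjusted p = 0.00404) and 215485_s_at (adjusted p = 0.0308) and did not call 202638_s_at (adjusted p = 0.112), where 1.43% of all these probe sets were called higher. In all 3, control replicate 1 lay below control replicate 2 and knockdown replicate 1 above knockdown replicate 2.

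CD48, a lipid-anchored SLAM family protein found on most blood cells, was read by 1 probe set past the filter. Probe set 204118_at read 252 and 246 in knockdown cells, against 149 and 179.7 in control cells. The knockdown arrays were close together, and the control arrays stood apart by 0.25 on the log2 scale, with replicate 1 the lower. The means were 249 ± 4.20 in knockdown cells and 164 ± 22.0 in control cells, a log2 fold change of 0.56 with a 95% interval of 0.28 to 0.85 in the common-prior fit (adjusted p = 0.252). The intensity-trend fit gave 0.37 to 0.76 (adjusted p = 0.00333), and 0.31% of tested genes had a fold change this high or higher. Leaving out an array leaves a group of 1, which is assumed to vary like the other group, so only the fold changes of such fits bear on stability. Without control replicate 1 the log2 fold change of CD48 was 0.44, the lowest value with any array left out, and without control replicate 2 it was 0.69. The second CD48 probe set, 237759_at, lay below the filter at 8.07 and 6.70 in knockdown cells, against 8.90 and 4.67 in control cells, and shows no order.

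CD70, the TNF superfamily ligand of CD27, was read by a single probe set, 206508_at. It read 295 and 311 in knockdown cells, against 237 and 241 in control cells. The groups did not overlap, with means of 303 ± 11.3 in knockdown cells and 239 ± 2.81 in control cells and a log2 fold change of 0.32. CD70 passed the intensity-trend fit narrowly (adjusted p = 0.0320) and not the common-prior fit (adjusted p = 0.275), and 4.19% of tested genes had a fold change as high or higher. That call was lost with all 4 arrays when no filter was set on dim probe sets (adjusted p = 0.0736). With single arrays left out, the log2 fold change of CD70 ran from 0.29, without knockdown replicate 2, to 0.36, without knockdown replicate 1. TNFSF4, the other ligand of this family, read 4.76 and 2.35 in knockdown cells, against 4.59 and 5.70 in control cells, below the filter and near the floor of the deposited values at 1.

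The common-prior fit called members under 2 of the alternatives. With only genes of a mean intensity of at least 50, the common-prior fit called CD48 (adjusted p = 0.0354) and ICAM1 (adjusted p = 0.0407), where it called 1.73% of genes higher. With 64 added in place of 16 before the logarithm, it called CD48 (adjusted p = 0.00331), ICAM1 (adjusted p = 0.00445) and CD70 (adjusted p = 0.0292), where it called 1.74% of genes higher. The first setting also cut the genes tested to 5614 from 12922, and the second rescales every gene, so what moved the calls was not tested. When all probe sets of a gene were averaged, the intensity-trend fit called no member, and over all genes it called 23 of 11512, in place of 387 of 12922. CD70, with its single probe set, kept its log2 fold change of 0.32 there (adjusted p = 0.110). ICAM1 gave 0.44 (adjusted p = 0.126), and CD48 gave 0.30 (adjusted p = 0.155) with its dim probe set in the mean.

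**Figure D2:**
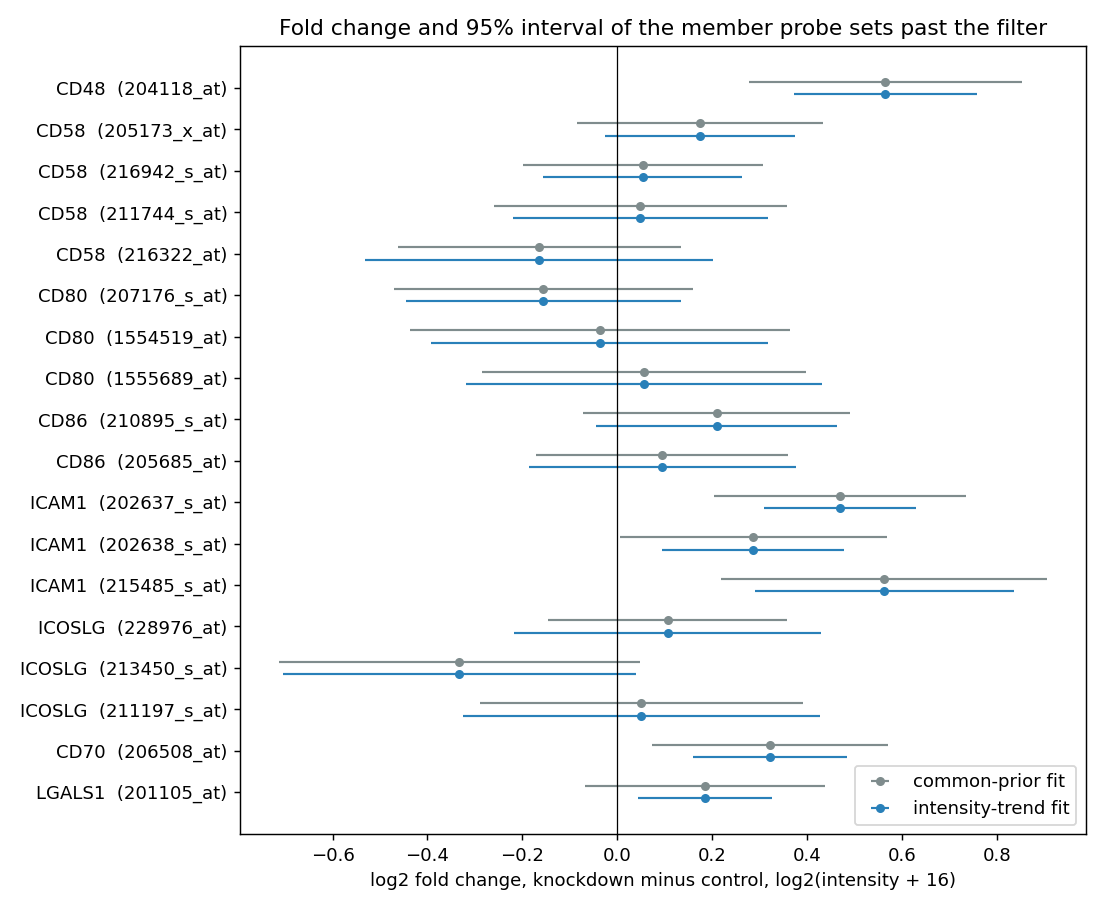
Log2 fold change, knockdown minus control, of the 18 member probe sets that passed the filter, with 95% intervals from the common-prior fit in grey and the intensity-trend fit in blue. The intervals of CD48, CD70 and the 3 ICAM1 probe sets lie above 0 in both fits before adjustment, those of CD58, CD80, CD86 and ICOSLG cross 0 in both, and that of LGALS1 crosses 0 in the common-prior fit only.

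LGALS1, galectin-1, was read by probe set 201105_at at 605 and 643 in knockdown cells, against 534 and 559.9 in control cells. The groups did not overlap, and the log2 fold change was 0.19, with a 95% interval of 0.05 to 0.33 in the intensity-trend fit. LGALS1 passed neither fit after adjustment (adjusted p = 0.457 and 0.148). It did pass the intensity-trend fit when arrays were centred on their medians (adjusted p = 0.0420), a step that lifted the median of all tested genes from -0.01 to 0.05.

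Neither ligand of CD28 passed a test. CD86, which antigen-presenting cells carry at a low level before activation, read 49.7 and 60.9 in knockdown cells at 210895_s_at, against 44.5 and 46.4 in control cells. Its knockdown arrays both lay above the control arrays, with a log2 fold change of 0.21 and an interval of -0.04 to 0.46 in the intensity-trend fit (adjusted p = 0.399). Single arrays moved that fold change, which was 0.10 without knockdown replicate 2 and 0.32 without knockdown replicate 1. CD80, which comes up more slowly on activation, read 26.7 and 35.1 in knockdown cells at 207176_s_at, against 32.5 and 39.9 in control cells. Those groups overlapped, and the log2 fold change was -0.16 with an interval of -0.45 to 0.14 (adjusted p = 0.627). It was -0.03 without knockdown replicate 1, -0.05 without control replicate 2, -0.26 without control replicate 1 and -0.29 without knockdown replicate 2. The other probe sets of CD80 gave -0.04 and 0.06. The difference between CD80 and CD86 was not tested.

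ICOSLG was dim on every probe set. Probe set 228976_at, the brightest by its mean, read 16.1 and 14.7 in knockdown cells, against 12.4 and 13.9 in control cells, a log2 fold change of 0.11 (intensity-trend adjusted p = 0.796). Probe set 213450_s_at went the other way, at 12.3 and 7.06 in knockdown cells, against 20.7 and 12.2 in control cells, a log2 fold change of -0.33 (adjusted p = 0.367 over all probe sets). Below the filter, 211198_s_at read 1.21 and 1.42 in knockdown cells, against 8.19 and 6.58 in control cells, the only 1 of the 27 with both knockdown arrays below both control arrays. No single direction could be given for ICOSLG.

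CD58, the ligand of CD2, had 5 probe sets. The brightest, 205173_x_at, read 134 and 119.5 in knockdown cells, against 109 and 112 in control cells, a log2 fold change of 0.17 with an interval of -0.03 to 0.38 (intensity-trend adjusted p = 0.370). Without knockdown replicate 1 it was 0.10, and without knockdown replicate 2 it was 0.25. Its suffix marks a design whose probes can match other transcripts. The next, 216942_s_at, read 98.8 and 91.2 in knockdown cells, against 92.6 and 89.2 in control cells, so its groups overlapped (log2 fold change 0.05). Probe set 211744_s_at also overlapped, at 0.05, and 216322_at lay at -0.16 among values of 6.35 to 12.4. SLAMF1, a self-binding receptor of the family of CD48, lay below the filter on all 3 probe sets, between 1.00 and 9.29 over the 4 arrays.

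**Figure D3:**
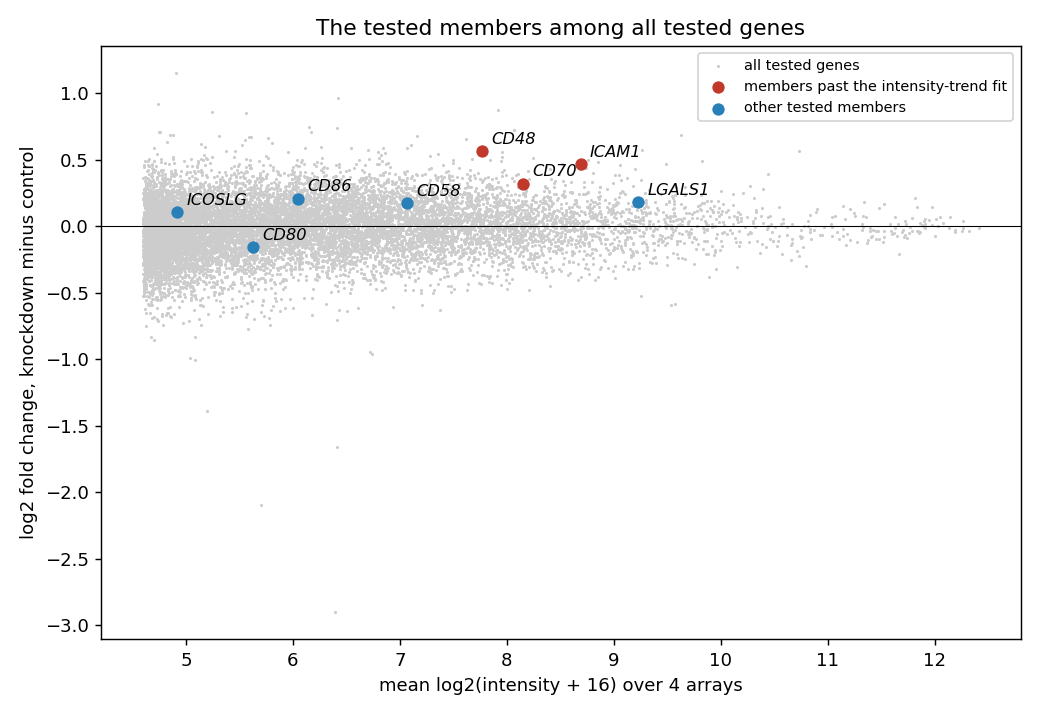
Each tested gene by its mean log2(intensity + 16) over 4 arrays and its log2 fold change, knockdown minus control, with the 8 tested members in colour. CD48 (0.56), ICAM1 (0.47) and CD70 (0.32) are in red, with 0.31%, 0.797% and 4.19% of tested genes at or above their fold changes. CD80 (-0.16) is the member below 0.

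The promoters of CD48 and ICAM1 are shown because these are the 2 members with the smallest adjusted p in the intensity-trend fit over genes. RefSeq promoters of the GRCh38.p14 build were used for 8 of the 10 genes, all but CD70 and LGALS1. Each line below gives the 250 bases before the start site, 5′ to 3′ on the gene's strand, with motif matches in capitals. CD48 lies on the minus strand at chr1:160711823-160712072, and ICAM1 on the plus strand at chr19:10270870-10271119.
CD48: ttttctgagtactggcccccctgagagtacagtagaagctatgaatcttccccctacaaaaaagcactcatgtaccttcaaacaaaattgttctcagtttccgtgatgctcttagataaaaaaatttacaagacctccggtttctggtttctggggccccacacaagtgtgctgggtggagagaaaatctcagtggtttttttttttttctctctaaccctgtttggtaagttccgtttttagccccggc
ICAM1: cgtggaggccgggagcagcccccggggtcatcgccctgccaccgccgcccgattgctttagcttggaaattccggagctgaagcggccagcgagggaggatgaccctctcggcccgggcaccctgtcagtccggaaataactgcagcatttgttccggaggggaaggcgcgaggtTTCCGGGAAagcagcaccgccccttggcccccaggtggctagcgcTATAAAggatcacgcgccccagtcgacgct

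Both strands of the 300 bases from 250 before to 50 after each start were searched for the STAT-binding GAS motif TTCNNNGAA, the TATA box TATAAA and the NF-kB decamer. Only a strict form of the decamer, beginning GGG and ending CC, was searched, so looser NF-kB sites are not marked. A missing match does not show that a site is absent. ICAM1 held a GAS match beginning 75 bases before the start, the same on both strands, and a TATA box beginning 30 bases before it. CD48 held none of the 3. These motifs occur in 7.66%, 11.5% and 11.3% of all 35116 promoters of that length. Among the other members, CD86 held an NF-kB match at 1 of its starts, and CD58, CD80, ICOSLG, TNFSF4 and SLAMF1 held no match. The promoters also differ in composition, with 24 CpG pairs and 64.7% G and C in that of ICAM1 and 5 pairs and 44.7% in that of CD48, against medians of 14 and 58.7% over all promoters. A match describes letters only, and no binding was measured.

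Of the genes next to the members on their chromosomes, 22 were tested, and 0 passed the common-prior fit and 1 the intensity-trend fit, against 2.99% of all genes called in either direction by the intensity-trend fit. These neighbours, up to 2 protein-coding genes on either side in the GRCh38.p14 order, were added after the data had been seen. Beside CD48, CD84 read 16.9 and 29.2 in knockdown cells, against 21.2 and 21.6 in control cells (log2 fold change 0.05), its second probe set gave -0.35 among values of 3.83 to 13.6, and SLAMF7 lay below the filter. Beside CD70, TNFSF9, which encodes the ligand of the receptor 4-1BB, read 156 and 149.7 in knockdown cells, against 123 and 193 in control cells (-0.01). Beside ICAM1, ICAM5 gave -0.09, ICAM4 lay below the filter, and MRPL4, a mitochondrial ribosomal protein gene, read 83.8 and 84.0 in knockdown cells, against 59.9 and 58.5 in control cells. MRPL4 had a log2 fold change of 0.41, with an adjusted p of 0.0409 in the intensity-trend fit and 0.255 in the common-prior fit.

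The genes whose 4 values moved most like those of CD48 were IL2RG, the shared cytokine receptor chain, DHPS, an enzyme that modifies a translation factor, and TMEM147, a membrane protein of the endoplasmic reticulum. Their distances from CD48 in mean-centred log2 values over 4 arrays were 0.06, 0.07 and 0.07, among 12922 genes. IL2RG read 177 and 164 in knockdown cells, against 104 and 123 in control cells. Nearest to ICAM1 was IFI16, an interferon-inducible DNA sensor, at a distance of 0.03, with 632 and 584 in knockdown cells, against 412 and 464 in control cells. EPN3 and ADRA1A, both dim at up to 18.2, came next at 0.06 each. Both passed the filter through the knockdown arrays alone, with control values of 6.02 to 7.59. Their knockdown means were 2.32 and 2.17 times the control mean, against 1.40 for ICAM1, on a scale that compresses the changes of dim probe sets. With 4 arrays, likeness of this kind is a description only.

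In the fits over genes, relatives of the ligands gave no call in the common-prior fit, in either direction, and 1 in the intensity-trend fit. Of the SLAM family and its adaptors, 2 of 10 genes on the array were tested and 0 passed. SH2D1A, the adaptor SAP, read 89.97 and 100.1 in knockdown cells, against 79.2 and 65.3 in control cells (log2 fold change 0.33, intensity-trend adjusted p = 0.115), and its other probe sets gave 0.11 to 0.33. Of the B7 family list 5 of 9 were tested and 0 passed, with a median of -0.09. That list also holds the receptors TNFRSF14, at -0.14, and BTLA, below the filter. CD276 gave -0.33 with overlapping groups, at 12.8 and 10.6 in knockdown cells, against 28.3 and 11.2 in control cells. Its other probe sets lay below the filter, at -0.07 and 0.04. Of the other TNF superfamily ligands 10 of 13 were tested and 0 passed, with a median of -0.05. TNFSF10, the death ligand TRAIL, read 212 and 201 in knockdown cells, against 150.1 and 183 in control cells (0.29, adjusted p = 0.105), while its other probe sets gave 0.26 and, with overlapping groups, -0.02. The dim FASLG gave -0.42, with both knockdown values below the filter.

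Among relatives of ICAM1 and other adhesion ligands 11 of 15 were tested and 0 passed, with a median of 0.02. ICAM2, another ligand of LFA-1, read 154 and 157 in knockdown cells, against 122 and 132 in control cells (0.27, adjusted p = 0.123). Its second probe set, 204683_at, read 74.3 and 64.8 in knockdown cells, against 44.7 and 44.1 in control cells, a log2 fold change of 0.50 that the intensity-trend fit over probe sets called (adjusted p = 0.0304). JAM2, a junctional adhesion molecule, gave 0.30 (adjusted p = 0.148), and its second probe set overlapped at 0.02. Of the leukocyte integrins 8 of 10 were tested and 0 passed, with a median of -0.01 and ITGAM at -0.23. The dim ITGAL gave -0.38, at 11.5 and 6.45 in knockdown cells, against 18.0 and 14.8 in control cells. A second ITGAL probe set lay below the filter with overlapping groups, at -0.06. Of the galectins and related genes 5 of 10 were tested, and LGALS3, galectin-3, was the 1 that passed, in the intensity-trend fit only, against 1.4% of all genes called lower in the intensity-trend fit. Its probe set 208949_s_at read 2.45 and 4.32 in knockdown cells, against 14.9 and 23.6 in control cells (log2 fold change -0.85, adjusted p = 0.0193). LGALS3 passed the filter through the control arrays alone, both knockdown values lying below 8.26, so its test is not independent of the filter. A second LGALS3 probe set lay below the filter with overlapping groups, LGALS8 gave -0.24, and the list's median was -0.18.

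The receptors by which T cells bind these ligands were dim or did not pass. Of 9 such genes 6 were tested and 0 passed either fit, with a median of 0.05. ITGB2, the beta chain of LFA-1 and also a gene of B cells, read 204 and 197 in knockdown cells, against 153 and 196 in control cells (0.19). CTLA4 read 7.96 and 6.16 in knockdown cells, against 15.98 and 12.9 in control cells (-0.40, adjusted p = 0.234). CTLA4 too passed the filter through the control arrays alone, and its other 4 probe sets lay below it at -0.17 to 0.17.

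**Figure D4:**
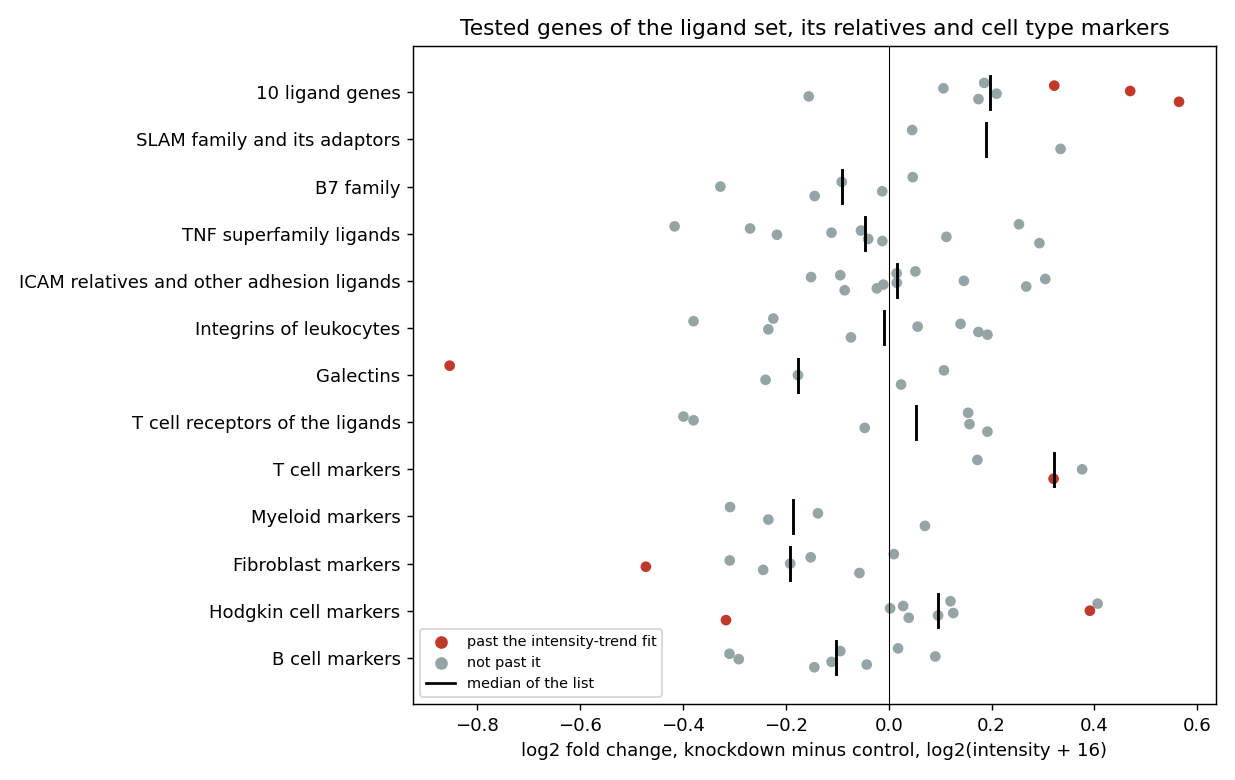
Log2 fold change, knockdown minus control, of the tested genes in the ligand set, in related gene lists and in marker lists, with the median of each list as a bar. Red points passed the intensity-trend fit. The ligand set has 3 red points to the right of 0, the related lists have 1, LGALS3, to the left at -0.85, and the marker lists have CD3D and FUT4 to the right and COL1A2 and FSCN1 to the left.

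The arrays had means between 53.3 and 54.6 and medians between 8.12 and 9.28, with the knockdown medians the lower. PIERCE2, the gene to which the hairpin's vector name corresponds by general knowledge, read 621 and 590.3 in knockdown cells, against 880 and 947 in control cells, and CIITA read 60.6 and 53.6 in knockdown cells, against 59.6 and 65.1 in control cells. The Hodgkin marker TNFRSF8 (CD30) was present at 110 to 134 on all arrays, while CCL22 stood at the floor of 1 on all 4. In the Hodgkin list 9 of 10 were tested, with FSCN1 (-0.32) and FUT4 (0.39) past the intensity-trend fit. That fit called 2.99% of all genes in either direction. IL2RA gave 0.41 and was not called (intensity-trend adjusted p = 0.151). A second FSCN1 probe set gave 0.35, a second FUT4 probe set 0.10 and a second IL2RA probe set 0.17. Of 9 B cell markers 8 were tested and 0 passed either fit, with 2 above 0, 6 below 0 and a median of -0.10. CD22 gave -0.31 and POU2F2 -0.29, while PAX5 gave 0.09 and MS4A1 0.02. CD22 passed the filter through the control arrays alone, and its other probe sets lay below it with overlapping groups, at 0.01 to 0.11. The other 4 POU2F2 probe sets past the filter overlapped, at -0.08 to 0.14.

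CD48 and LGALS1 are also made by T cells, myeloid cells or fibroblasts, so markers of those cells are given. Of 9 T cell markers 3 were tested, and their summed intensity was 292 and 256 in knockdown cells, against 212 and 209.8 in control cells. CD3D, which supplied most of each sum, read 253 and 225 in knockdown cells, against 194 and 183 in control cells (0.32, intensity-trend adjusted p = 0.0499). The dim CD4 gave 0.38 among values of 7.44 to 23.05, and CD7 gave 0.17 among values of 11.3 to 15.9. The defining markers CD3E, CD3G, CD8A and LCK lay below the filter on the mean of 4 arrays. Of 9 myeloid markers 4 were tested and 0 passed either fit, with sums of 143 and 151 in knockdown cells, against 168 and 153 in control cells. CSF1R, the brightest, overlapped at 0.07 among values of 75.7 to 87.8. The dim MPO gave -0.31 and ITGAM -0.23, and their other probe sets lay below the filter with overlapping groups, at -0.10 and -0.04. Of 9 fibroblast markers 7 were tested, with sums of 413 and 422 in knockdown cells, against 467 and 484 in control cells. PDGFRA, which supplied most of each sum, gave -0.06 among values of 285 to 303. COL1A2 was lower in the intensity-trend fit (-0.47, adjusted p = 0.0405) at 1 of its probe sets. The dim LUM gave -0.31 among values of 8.78 to 16.2 and was not called (intensity-trend adjusted p = 0.356). By their titles all 4 arrays held KM-H2 cells, an established line, so these are readings of such genes in that line and not counts of other cells. The part of other cells in the values of the ligands was not tested.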

How the data were processed

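RNA of KM-H2 cells was read on 4 single-colour Affymetrix arrays with biotin-labelled cRNA, per the labels' protocols. The deposited values are linear intensities, 1 per probe set and array, made by the authors. No source used here states how they were summarised and scaled. Values at exactly 1 mark a floor. Columns were matched to groups by sample titles. Of 54613 probe sets, 41091 carried 1 gene symbol in the platform annotation, 1801 several and 11721 none, and only the first were named.

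Intensities were turned into log2(intensity + 16). Each gene was represented by its brightest probe set, and genes whose probe set lay under the median brightness of all probe sets were left out. The groups were compared by lmFit and eBayes of limma 3.58.1 (R 4.3.3), with and without an intensity trend, with Benjamini-Hochberg adjustment over all genes (12922) or all one-gene probe sets (22639) at a threshold of 0.05. The number of arrays limits the precision. An exact permutation of 2 against 2 arrays cannot go below a two-sided p of 0.333, so none was run. The scripts were tested on simulated data.

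The members, lists and tests were chosen with earlier results of these data known. Named genes are the members, in each list the 2 genes of largest moderated t and those past a fit, the 3 genes most like CD48 and ICAM1, PIERCE2 and CIITA. Other genes were named after their values were seen. Alternatives were quantile normalization, median centring, other filters and pseudocounts, robust hyperparameters, averaging of probe sets, a replicate block and leaving out each array.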

Additional observations from a re-analysis of the deposited data

How the results depend on the processing

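The count of member genes called by the common-prior fit was 0 and became 2 with only genes of a mean intensity of at least 50 and 3 with a pseudocount of 64. Over probe sets it was 0 and became 3, where 3.61% of all probe sets were called higher, and 4, where 1.73% were. In the intensity-trend fit the count of 3 genes became 0 when a gene's probe sets were averaged, a setting that called 23 of all 11512 genes. The count of 4 probe sets became 2 with quantile normalization and 2 with no filter, where all probe sets called numbered 429 of 22644 and 86 of 41091, in place of 529 of 22639. With single arrays left out, the members' median log2 fold change ran from 0.17 to 0.28. With all 4 arrays, CD48 and ICAM1 passed the intensity-trend fit under every alternative except the averaging of probe sets (adjusted p = 0.155 and 0.126). CD70 did not pass it there (adjusted p = 0.110) or with no filter (adjusted p = 0.0736), and passed it under the other alternatives with all 4 arrays. ICOSLG reversed to -0.10 with its probe sets averaged, and none of the other 7 tested members changed sign under any alternative run; TNFSF4 and SLAMF1 were below the filter and were not followed.

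Replicates of the same number showed little shared effect. The difference between replicates 1 and 2 in knockdown cells correlated with that in control cells at r = -0.01 over 12922 genes. These genes are not independent, and the value cannot show whether the arrays were handled in pairs. Under a replicate block the intensity-trend fit called 4 member genes, LGALS1 (adjusted p = 0.0488) being added, and 1010 of all genes in place of 387. Over all genes the common-prior fit called 2. Dim probe sets near the floor of 1 limit what can be said of TNFSF4, SLAMF1 and ICOSLG.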
